A study of Mus musculus with 60 samples.

Results

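The aryl hydrocarbon receptor (AhR) is a transcription factor that senses small molecules, and 6 genes of its core pathway were followed here through whole-blood RNA sequencing of 60 mice. The genes were chosen by name and matched to the count tables by gene identifier, and all 6 were found among the 49315 genes listed. They were the receptor gene Ahr, the gene of its DNA-binding partner Arnt, the feedback genes Ahrr and Tiparp, and the cytochrome P450 target genes Cyp1a1 and Cyp1b1.

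Male CD2F1 mice, an F1 hybrid of the BALB/c and DBA/2 strains, received oral vehicle or BIO 300, a powder of synthetic genistein, for 6 days. It was given by gavage 2 times a day at 50 mg/kg, 100 mg/kg or 200 mg/kg, which the labels call low, medium and high. For each dose and for vehicle, 6 mice were bled on Day 0, when 24 h had passed since dosing ended, and 6 others on Day 1, at 48 h. In 2 more groups of 6, vehicle and 200 mg/kg mice were exposed to 9.2 Gy total-body irradiation (TBI) on Day 0 and bled on Day 1, 24 h later. Each mouse was 5 to 6 weeks old at purchase and was bled a single time, so no mouse appears on both days. The comparisons ask whether the drug changed these genes at each dose and day, whether TBI changed them, and whether the drug effect differed with TBI.

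Without a ligand, AhR protein rests in the cytosol in a complex with HSP90. A bound ligand sends it to the nucleus, where it pairs with ARNT and binds response elements that hold the core GCGTG, and Cyp1a1, Cyp1b1, Ahrr and Tiparp are classical targets induced in this way. AHRR, the AhR repressor, competes for ARNT, and TIPARP, an ADP-ribosyltransferase, curbs AhR activity, so both close a feedback loop. Genistein is a plant isoflavone, and flavonoids are among the dietary compounds known to bind the receptor. The DBA/2 parent carries the low-affinity form of the receptor, and F1 mice also inherit the allele of the BALB/c parent. This background was shared by all 10 groups, and the affinity of the receptor was not measured.

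The libraries held between 15099415 and 45589415 counted reads. Blood markers were abundant, with 7 erythroid markers, mostly globins, summing to between 18500 and 624000 CPM (reads scaled to library size) per mouse. On Day 1 the 7 erythroid and 7 platelet markers were all called higher at both 100 and 200 mg/kg than with vehicle. With total counts all 7 platelet markers but only 2 of 7 erythroid markers were called at either dose. The median erythroid sum was 99500 CPM with vehicle, 400000 CPM at 100 mg/kg and 457000 CPM at 200 mg/kg. Levels below are CPM with trimmed mean of M-values (TMM) factors over the 60 mice, and in bulk blood fewer cells of a type and less RNA per cell cannot be told apart. In 17 mice the hepatocyte gene Alb exceeded 10 CPM, a transcript foreign to blood cells, and all 17 carried odd animal numbers. The highest Alb levels were 16100 CPM in mouse 51, 6450 CPM in mouse 17, 5620 CPM in mouse 57 and 3450 CPM in mouse 49. These libraries bear on the low-count members and their values are given with them.

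The scaling mattered on Day 1. Between 200 mg/kg and vehicle the median log2 fold change of all genes was -0.48 with TMM and -1.96 when libraries were scaled by their total counts. For 100 mg/kg the values were -0.38 and -1.76. A gene was called changed where the adjusted p of edgeR's quasi-likelihood test was under 0.05 and the absolute log2 fold change over 1. With TMM 4073 genes were called higher and 7168 lower at 200 mg/kg on Day 1, against 712 and 15407 with total counts. For 100 mg/kg the counts were 4314 and 7249 against 980 and 14735.

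Per kilobase of exon, the 6 genes fell into 2 tiers. Over the 60 mice the mean level was 3.52 CPM per kb for Tiparp, 3.13 for Arnt and 1.42 for Ahr. The median mouse had 3.62 CPM per kb of Tiparp and 3.11 of Arnt, and the ranges over mice, 1.14 to 6.00 and 2.03 to 4.54, overlapped. Cyp1a1, Cyp1b1 and Ahrr averaged 0.0198, 0.0182 and 0.0151 CPM per kb. The spread over mice did not separate these last levels. In raw reads, Ahr ranged from 19 to 844 counts per library, Arnt from 155 to 1572 and Tiparp from 46 to 1050. Ahrr had no read in 14 mice, Cyp1a1 in 29 and Cyp1b1 in 28, and only 5, 2 and 6 mice reached 10 counts. A level of the lower tier therefore rests on a few reads.

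The core GCGTG was searched on both strands of the RefSeq promoter windows (GRCm38.p6), which span 250 bases before and 50 bases after each start site. Promoters of 5 of the 6 genes were matched, and each of the 5 held the core. By comparison, 32.6% of the 32544 distinct promoter windows held it. The stretches that carry the cores are shown because they are the letters AhR and ARNT are known to read, with each core, or its reverse complement CACGC, in capitals, 5′ to 3′ along the gene's strand.
Tiparp, chr3:65528262-65528296, + strand: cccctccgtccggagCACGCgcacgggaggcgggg
Arnt, chr3:95434346-95434380, + strand: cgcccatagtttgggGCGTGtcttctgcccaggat
Ahrr, chr13:74292339-74292453, - strand: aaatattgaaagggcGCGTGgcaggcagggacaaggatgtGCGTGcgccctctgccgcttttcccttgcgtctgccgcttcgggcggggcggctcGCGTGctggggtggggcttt
Cyp1a1, chr9:57697544-57697578, + strand: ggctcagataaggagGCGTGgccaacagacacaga
Cyp1b1, chr17:79715118-79715152, - strand: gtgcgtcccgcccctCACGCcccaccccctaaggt
The Ahrr window stood out with 3 cores, a number that 3.94% of all windows reached. Its core nearest the start site also matched the longer form TNGCGTG, found in 5.09% of windows and in none of the other 4. These matches describe the letters and were not tied to binding or to expression in these data.

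The receptor was present in every mouse. Ahr (ENSMUSG00000019256, chr12:35497974-35535038, - strand, GRCm38) averaged 10.4 ± 1.57 CPM (SD, n = 6) with vehicle on Day 0, with a lowest, median and highest mouse at 8.29, 10.3 and 12.8 CPM. On Day 1 the vehicle mice stood at 7.94, 9.65 and 12.3 CPM, so the vehicle groups overlapped across days. On Day 0 the mean was lower with each dose, at 8.65 ± 1.17 CPM with 50 mg/kg, 8.02 ± 2.89 CPM with 100 mg/kg and 7.71 ± 1.83 CPM with 200 mg/kg. The log2 fold changes against vehicle were -0.25 (SE 0.11), -0.36 (SE 0.22) and -0.42 (SE 0.15), and none passed (edgeR adjusted p = 0.158, 1.0 and 0.546). With total counts the 50 mg/kg value turned to 0.42.

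On Day 1 Ahr spread further at the higher doses. In the 100 mg/kg group the lowest, median and highest mice had 2.77, 7.76 and 8.95 CPM, and at 200 mg/kg 2.06, 6.30 and 8.96 CPM. Of the 6 mice at 200 mg/kg, 5 were below every vehicle mouse. The log2 fold change was -0.49 (SE 0.25, adjusted p = 0.095) for the middle dose and -0.61 (SE 0.26, adjusted p = 0.0503) for the highest, and neither was called by edgeR. Scaled by total counts these values were -1.83 and -2.06 and both were called. Relative to the median of all genes the shift at 200 mg/kg was small with either scaling, -0.12 with TMM and -0.10 with total counts. At 50 mg/kg the log2 fold change was 0.10 (SE 0.12, adjusted p = 0.705), and it was -0.21 with total counts.

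After TBI the vehicle mice had the widest spread of Ahr, from 3.94 to 15.5 CPM with a median of 11.3 CPM. Against nonirradiated vehicle the log2 fold change was 0.079 (SE 0.30, edgeR adjusted p = 0.841), with 3 mice above and 2 below every vehicle mouse. Irradiated 200 mg/kg mice lay between 6.14 and 7.26 CPM except mouse 57 at 16.1 CPM. Their log2 fold change against irradiated vehicle was -0.41 (SE 0.38, edgeR adjusted p = 1.0). Mouse 57 and mice 49 and 51, at 15.0 and 15.5 CPM, were the irradiated mice with the highest Alb levels, but mouse 52, without Alb over 10 CPM, had 14.4 CPM. The part of liver transcripts in these values was not tested.

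Arnt, the partner that many bHLH-PAS proteins share, had the narrowest range of group means among the 3 expressed members with TMM. Its gene (ENSMUSG00000015522, chr3:95434388-95497240, + strand) had group means between 20.5 CPM in the 200 mg/kg group of Day 1 and 28.2 CPM in irradiated vehicle mice, a 1.38-fold range. With total counts its means ran from 10.6 CPM in that 200 mg/kg group to 49.5 CPM at 50 mg/kg on Day 0, and those of Ahr from 3.35 to 15.8 CPM in the same groups. Vehicle mice of Day 1 had a lowest, median and highest level of 18.3, 24.9 and 30.8 CPM, and 200 mg/kg mice 16.3, 20.5 and 24.2 CPM, so the groups overlapped. The log2 fold change was -0.16 (SE 0.12, edgeR adjusted p = 0.254) for 100 mg/kg and -0.21 (SE 0.13, edgeR adjusted p = 0.183) for 200 mg/kg. With total counts the values were -1.55 and -1.74, both called, yet Arnt stood above the median gene at 200 mg/kg by 0.27 with TMM and 0.22 with total counts. TBI gave 0.15 (SE 0.15, edgeR adjusted p = 0.421) in vehicle mice. That value was -0.22 with total counts. Within irradiated mice the drug gave -0.073 (SE 0.14, edgeR adjusted p = 1.0).

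Every irradiated 200 mg/kg mouse, between 25.1 and 30.6 CPM, exceeded every nonirradiated 200 mg/kg mouse in Arnt. This gave a log2 fold change of 0.37 (SE 0.14, edgeR adjusted p = 0.0605), which was not called, and 1.29, called, with total counts. Ahr in the same comparison gave 0.39 (SE 0.33, edgeR adjusted p = 0.391) and 1.32, called, with total counts. The median gene rose by 0.41 and 1.31 on the respective scales, and Arnt was -0.038 and -0.019 from it. How many of all genes separated these groups as Arnt did was not counted.

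**Figure D1:**
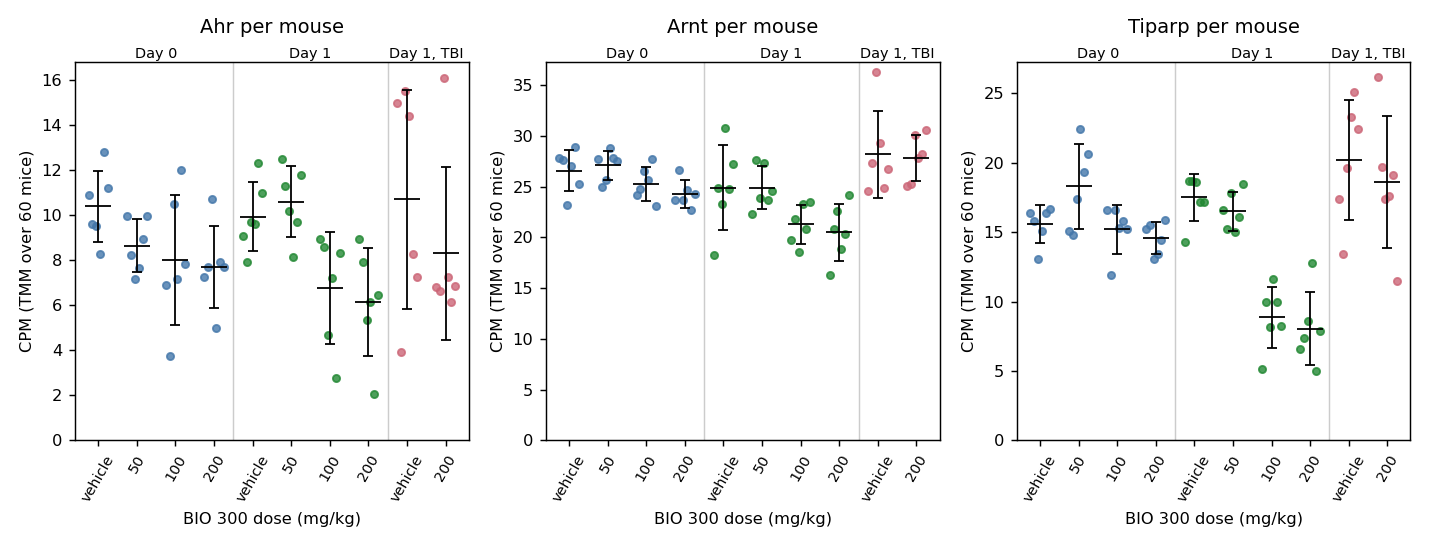
CPM (TMM over 60 mice) of Ahr, Arnt and Tiparp in each mouse, by dose in mg/kg, with Day 0, Day 1 and irradiated Day 1 groups separated by lines. Points are mice, and bars are the mean ± SD of 6 mice. Tiparp at 100 and 200 mg/kg on Day 1 lies between 4.99 and 12.8 CPM, under the lowest vehicle mouse at 14.3 CPM.

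Tiparp carried the clearest difference. This feedback gene (ENSMUSG00000034640, chr3:65528410-65555518, + strand) had 17.5 ± 1.71 CPM with vehicle on Day 1, with a lowest, median and highest mouse at 14.3, 17.9 and 18.7 CPM. Mice given 100 mg/kg stood at 5.14, 9.09 and 11.6 CPM, and at 200 mg/kg at 4.99, 7.62 and 12.8 CPM. All 6 mice of either dose were below all vehicle mice, whereas the 50 mg/kg mice, between 15.0 and 18.5 CPM, overlapped vehicle. How many of all genes separated from vehicle as Tiparp did was not counted. At 200 mg/kg the log2 fold change was -1.05 (SE 0.19, edgeR adjusted p = 0.000232) and Tiparp was called lower. It was the only called member of the 4 tested there, where 47.8% of all genes were called and 30.5% were called lower. The 100 mg/kg log2 fold change of -0.92 (SE 0.17, edgeR adjusted p = 0.000344) missed the fold threshold, which it passed without mouse 40 (-1.02), and at 50 mg/kg it was -0.069 (SE 0.083, edgeR adjusted p = 0.716).

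The size of the Tiparp difference depended on the scale. Total counts gave -2.56 for 200 mg/kg and -2.32 for 100 mg/kg, both called. Relative to the median gene the 200 mg/kg difference was -0.56 with TMM and -0.61 with total counts. The call at 200 mg/kg was lost without mouse 43 (-0.98), without mouse 47 (-0.94), without all mice of Alb over 10 CPM (-0.95) and with edgeR's filterByExpr filter (-0.95). Within odd-numbered mice the Tiparp mean was 16.7 CPM with vehicle and 6.73 CPM at 200 mg/kg, and within even-numbered mice it was 18.2 and 9.35 CPM. All 8 B cell and all 8 T cell markers were called lower at 200 mg/kg under both scalings, the B cell list with median sums of 1000 CPM with vehicle and 307 CPM at 200 mg/kg, and the T cell list with 460 and 158 CPM. The 8 monocyte markers had median sums of 455 and 1270 CPM, but their median log2 fold change was -0.57, with 1 called higher and 1 lower, and with total counts it was -2.03, with 1 higher and 7 lower. The part of these cells in the Tiparp result was not tested.

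On Day 0 Tiparp was not called at any dose. The means were 15.6 ± 1.35 CPM with vehicle, 18.3 ± 3.04 CPM at 50 mg/kg, 15.2 ± 1.74 CPM at 100 mg/kg and 14.6 ± 1.15 CPM at 200 mg/kg, and the log2 fold change at 50 mg/kg was 0.24 (SE 0.11, edgeR adjusted p = 0.139), with 4 of 6 mice above all vehicle mice. With total counts it was 0.91 (edgeR adjusted p = 0.000869), under the fold threshold. No member was called at any dose on Day 0, beside 4.50%, 0.00% and 0.00% of all genes at 50, 100 and 200 mg/kg, nor at 50 mg/kg on Day 1 (0.00%). For 100 mg/kg the edgeR count of all genes was 0, with 726 genes at an unadjusted p under 0.05, and DESeq2 called 2. At 200 mg/kg edgeR called 0, with 2145 under 0.05, and DESeq2 called 2. At 50 mg/kg on Day 1 edgeR called 0, with 4458 under 0.05, and DESeq2 called 39. The change of the drug effect from Day 0 to Day 1, tested as an interaction, gave -0.90 (SE 0.19, edgeR adjusted p = 0.000435) for Tiparp at 100 mg/kg and -0.95 (SE 0.20, edgeR adjusted p = 0.000465) at 200 mg/kg. Both were under the fold threshold. The first passed it without mouse 40 (-1.03), and the second without any of mice 14 (-1.01), 16 (-1.0), 25 (-1.06), 29 (-1.02) or 46 (-1.13). No member was called in the interactions of 50, 100 and 200 mg/kg with day, beside 7.69%, 42.0% and 36.7% of all genes.

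Tiparp levels overlapped between drug and vehicle in irradiated mice. After TBI vehicle mice had 20.2 ± 4.33 CPM, with a lowest, median and highest mouse at 13.4, 21.0 and 25.1 CPM, and 200 mg/kg mice had 18.6 ± 4.74 CPM, at 11.5, 18.3 and 26.2 CPM. The log2 fold change of drug within irradiated mice was -0.17 (SE 0.21, edgeR adjusted p = 1.0). TBI against nonirradiated vehicle gave 0.18 (SE 0.17, edgeR adjusted p = 0.384), which was -0.20 with total counts. Within 200 mg/kg mice TBI gave 1.15 (SE 0.24, edgeR adjusted p = 0.00353), called higher, and 5 of 6 irradiated mice were above all nonirradiated ones. Relative to the median gene this was 0.74 with TMM and 0.75 with total counts.

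The drug effect on Tiparp differed between irradiated and nonirradiated mice by an interaction of 1.09 (SE 0.29, edgeR adjusted p = 0.0058). It was the only member called in that test, where 29.6% of all genes were called and 19.5% were called higher. The median gene moved by 0.60 with TMM and 1.68 with total counts, and Tiparp stood above it by 0.49 and 0.58. The interaction fell under the fold threshold without mouse 47 (0.99) and without mouse 55 (0.98), with DESeq2 (0.97) and without the mice of Alb over 10 CPM (0.97). A fit of all 60 mice gave 1.0 for Tiparp, not called, and called Ahrr in its place (3.17, edgeR adjusted p = 0.036), which was 3.27 and not called in the 4 groups alone (edgeR adjusted p = 0.115) and -0.18 without the Alb mice.

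**Figure D2:**
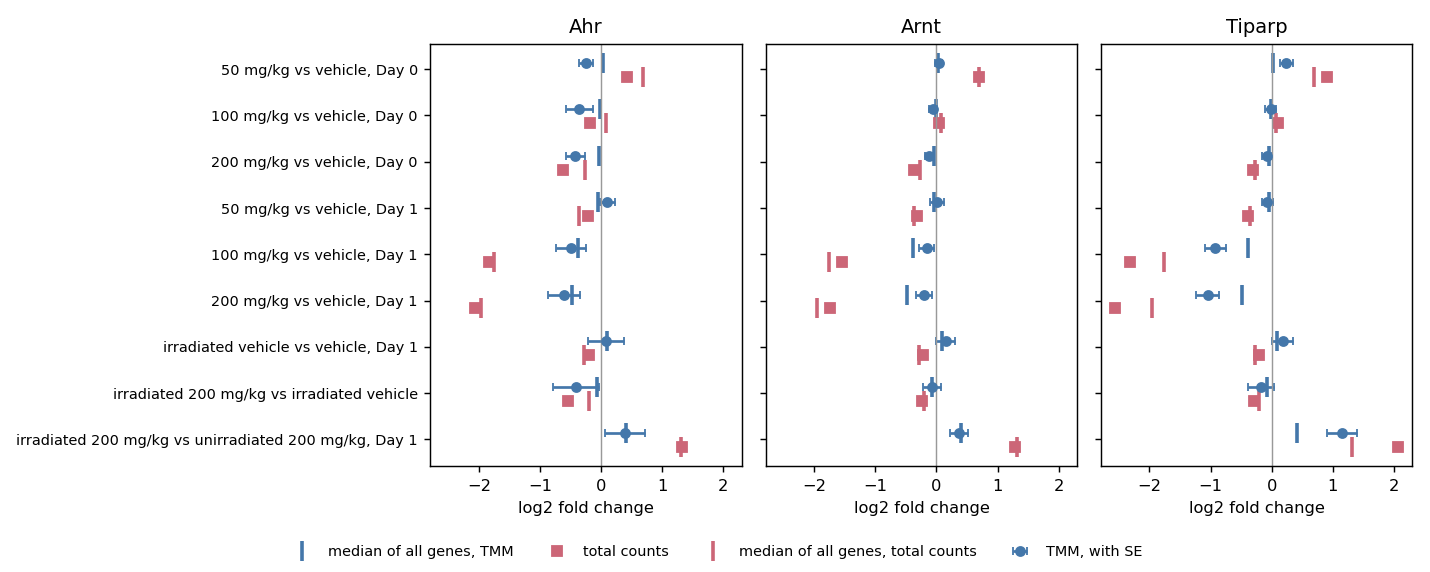
Log2 fold change of Ahr, Arnt and Tiparp in 9 comparisons, with TMM scaling (circles, bars are the SE) and with total counts (squares), and the median of all genes on each scale (ticks). At 200 mg/kg on Day 1 the squares lie at -2.06, -1.74 and -2.56 and the circles at -0.61, -0.21 and -1.05, and only for Tiparp are both well to the left of the tick.

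A ratio of 2 members within a library needs no scaling, and it was added after the levels had been seen. Tiparp had 0.721 reads per Arnt read in the median vehicle mouse of Day 1, within a range of 0.604 to 0.804. With 100 mg/kg the lowest, median and highest ratios were 0.260, 0.448 and 0.498, and at 200 mg/kg 0.246, 0.368 and 0.679. The 100 mg/kg group lay wholly under the vehicle group, and at 200 mg/kg only the highest mouse overlapped it. The mean log2 ratio differed by -0.81 at 100 mg/kg (exact permutation p = 0.00216, two-sided and the lowest possible for 6 against 6 mice) and by -0.90 at 200 mg/kg (exact permutation p = 0.00649). Over the 36 ratio tests the adjusted values were 0.0779 and 0.0974, so neither passed the correction. After TBI the ratio of drug to vehicle mice differed by -0.12 (exact permutation p = 0.647, adjusted p = 0.757). Against Ahr in place of Arnt, the Tiparp ratio differed by only -0.36 at each of the doses (exact permutation p = 0.381 and 0.251, adjusted p = 0.623 and 0.452). The Ahr to Arnt ratio differed by -0.54 at 200 mg/kg on Day 1 (exact permutation p = 0.162, adjusted p = 0.338).

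**Figure D3:**
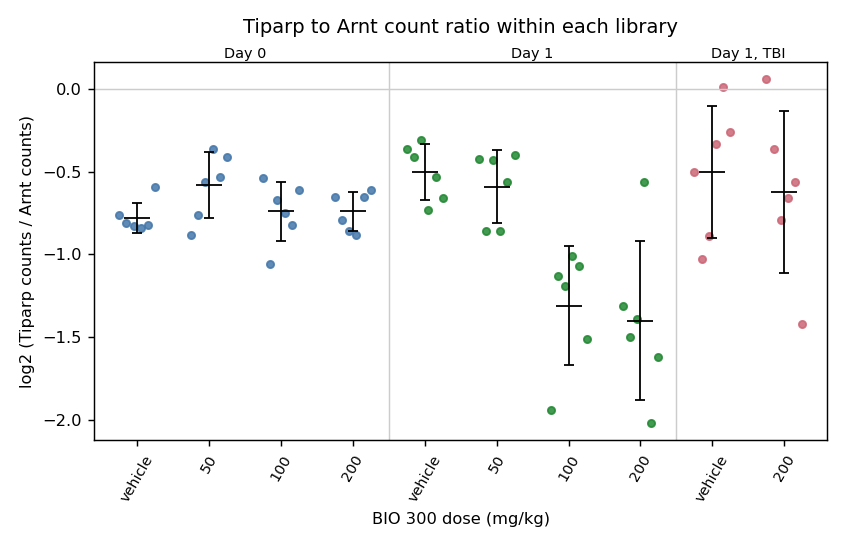
Log2 ratio of Tiparp to Arnt counts within each library, by dose in mg/kg, day and TBI, where points are mice and bars the mean ± SD of 6 mice. The 100 and 200 mg/kg groups of Day 1 average -1.31 and -1.40, against -0.50 with vehicle on Day 1 and -0.62 in irradiated 200 mg/kg mice.

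In the annotation the first 970 bases of Tiparp overlap the pseudogene 4931440P22Rik on the opposite strand, whose counts of 3 to 97 per mouse averaged 1.63 CPM beside 15.3 CPM for Tiparp. Arnt holds the processed pseudogene Gm42672 on its own strand, with 0 to 28 counts per mouse. The lincRNA Gm48236 lies over 618 bases at the 5′ end of Ahr on the opposite strand. Whether counting used the strand is not given in the sources used here, so reads of Tiparp and Ahr in these stretches are uncertain.

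Ahrr, the repressor gene (ENSMUSG00000021575, chr13:74211118-74292331, - strand), was near the detection limit in every group. Vehicle mice had 1 to 7 reads on Day 0 and 3 to 11 on Day 1. At 100 and 200 mg/kg on Day 1, 4 of 6 mice had no read at either dose, and the highest mouse had 7 and 3 reads. The log2 fold changes were -1.02 (SE 0.73, edgeR adjusted p = 0.227) and -1.43 (SE 0.81, edgeR adjusted p = 0.136) and were not called, while total counts gave -2.36 and -2.86, both called. The 100 mg/kg value was called without mouse 37 (-2.34) and the 200 mg/kg value without mouse 46 (-2.53). TBI in vehicle mice gave -1.03 (SE 0.51, edgeR adjusted p = 0.113), from 0 to 4 reads per mouse.

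A single library held 25.4% of all Ahrr reads. Mouse 57, irradiated after 200 mg/kg, had 76 reads or 1.45 CPM, and the other 5 mice of its group had 0 to 2. The log2 fold change against irradiated vehicle was 1.63 (SE 1.20, edgeR adjusted p = 1.0) with this mouse and -1.62 without it. Against nonirradiated vehicle of Day 1 it was 0.57 (SE 1.0, edgeR adjusted p = 0.657), but -2.61 without mouse 57 and -2.16 (edgeR adjusted p = 0.042) without the Alb mice, and both of these were called lower. The same library had the highest Ahr level and the most Cyp1b1 reads of the 60, and its fibroblast and mural markers summed to 208 CPM, also the highest. Their part in its Ahrr reads was not tested.

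Cyp1a1, the textbook AhR target that oxidizes aromatic hydrocarbons (ENSMUSG00000032315, chr9:57687928-57703824, + strand), gave 102 reads over the 60 mice. Vehicle mice of Day 1 had 0 to 2 reads, and the 6 mice at 200 mg/kg on Day 1 had none, which allows a level of up to 0.0352 CPM, taken at 3 counts over the group. As vehicle pooled to 0.0229 CPM, below this floor, a lower level with drug was not detectable at this depth and the gene was too low to be tested. With 100 mg/kg 4 of 6 mice had no read and the other two had 5 and 2. Day 0 groups had at most 2 reads per mouse except mouse 17 with 6. No induction of Cyp1a1 by any dose was called.

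After TBI Cyp1a1 reads were 9, 0, 20, 3, 1 and 1 in the vehicle mice, numbered 49 to 54, and 1, 3, 13, 1, 1 and 7 in the 200 mg/kg mice, numbered 55 to 60. The group means were 0.171 ± 0.214 and 0.144 ± 0.125 CPM, against 0.0224 ± 0.0270 CPM in nonirradiated vehicle mice. Cyp1a1 was called higher in irradiated vehicle mice by 2.77 (SE 0.93, edgeR adjusted p = 0.0273) and in irradiated 200 mg/kg mice by 2.47 (SE 0.82, edgeR adjusted p = 0.0244), with 3 mice of either group above all vehicle mice. The first call was lost without any of mice 27 (2.51), 28 (2.53), 49 (2.60) or 51 (1.98), and without the mice of Alb over 10 CPM the value was 0.65. The second was lost without mouse 60 (2.08), and it was 1.99, not called, without the Alb mice. With total counts the values were 2.61 and 1.98, and neither was called. Nonirradiated vehicle of Day 1 held 5 Cyp1a1 reads, under the filter of 10 counts, so the gene was tested only through the irradiated groups. A call against this vehicle group could therefore only be higher.

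Cyp1b1, a related P450 expressed outside the liver that also metabolizes estrogens (ENSMUSG00000024087, chr17:79701537-79715061, - strand), gave 199 reads. Vehicle mice had 0 to 3 reads on Day 1 and 0 to 13 on Day 0, where mice 16 and 17 held 21 of the 24 reads. At 200 mg/kg on Day 1 it too had none in 6 mice, with the same floor of 0.0352 CPM above the pooled 0.0275 CPM of vehicle. At 50 and 200 mg/kg on Day 0 the log2 fold changes of -3.02 (SE 1.20, edgeR adjusted p = 0.103) and -3.28 (SE 1.30, edgeR adjusted p = 0.546) were not called.

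At 100 mg/kg on Day 1 Cyp1b1 was called higher than with vehicle, by 2.69 (SE 0.84, edgeR adjusted p = 0.0122). The vehicle group held 6 reads, under the filter of 10 counts, so Cyp1b1 was tested only through the drug group and could only be called higher. It was the only member called there, beside 48.8% of all genes called and 18.2% called higher. The reads in mice 37 to 42 were 13, 0, 1, 1, 7 and 0, so mice 37 and 41 held most of them, and both had Alb over 10 CPM. The call was lost without mouse 37 (2.07), and with total counts it was 1.36 and not called. Without the Alb mice too few reads were left for a fit. At 200 mg/kg no read was seen.

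After TBI Cyp1b1 reads were 10, 0, 31, 2, 1 and 7 in vehicle mice 49 to 54 and 5, 2, 54, 1, 1 and 2 in 200 mg/kg mice 55 to 60. The means were 0.258 ± 0.324 and 0.253 ± 0.386 CPM, against 0.0274 ± 0.0291 CPM with nonirradiated vehicle, and the groups overlapped. It was called higher by 3.09 (SE 0.91, edgeR adjusted p = 0.0147) in vehicle mice and by 3.08 (SE 0.92, edgeR adjusted p = 0.0143) in 200 mg/kg mice. Nonirradiated vehicle of Day 1 held 6 reads, under the filter of 10 counts, so Cyp1b1 was tested only through the irradiated groups. Either call could therefore only be higher. Without the Alb mice both Cyp1b1 calls stayed, at 2.66 and 2.78, and the second was lost without mouse 57 (1.69). The irradiated mice left then had 0, 2, 1 and 7 reads with vehicle and 5, 2, 1 and 2 with 200 mg/kg. The nonirradiated vehicle mice left had 1, 1, 0 and 0 reads, so these calls rest on very few reads. Cyp1a1 and Cyp1b1 were the 2 members called in each of these comparisons, beside 36.0% of all genes called and 19.6% called higher in vehicle mice, and 36.6% and 19.6% in 200 mg/kg mice. Irradiated vehicle mice against vehicle mice of Day 0 gave no called member, beside 26.9% of all genes, 15.1% higher and 11.8% lower. In that comparison Cyp1b1 gave 0.58 (SE 1.0, edgeR adjusted p = 0.684), with 0.194 CPM in the Day 0 vehicle mice. Cyp1a1 gave 1.57 (SE 0.98, edgeR adjusted p = 0.237). The calls in irradiated vehicle mice therefore held only against vehicle of Day 1.

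Between irradiated 200 mg/kg mice and irradiated vehicle mice neither P450 was called. The log2 fold change was -0.36 (SE 0.84, edgeR adjusted p = 1.0) for Cyp1a1 and -0.0055 (SE 1.00, edgeR adjusted p = 1.0) for Cyp1b1, and a p of this size does not show that the levels were alike. No member was called there, beside 0.00% of all genes, where edgeR called 0 genes with 688 at an unadjusted p under 0.05 and DESeq2 called 0. Vehicle mice of Day 1 and Day 0 gave no call either (0.00%, with 3007 genes under 0.05, and 37 called by DESeq2).

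Irradiated against nonirradiated 200 mg/kg mice gave 3 called members, Tiparp, Cyp1a1 and Cyp1b1, all higher. Of all genes 20.6% were called there, 14.9% higher and 5.73% lower. Both P450 genes passed the count filter only through the irradiated group, so a call of them could only be higher. Since the nonirradiated group had no read of either P450, the pooled level of the irradiated group was set against the floor of 3 counts. For Cyp1a1 this ratio was 4.46, from 26 reads, and 3.26 without mouse 57. For Cyp1b1 it was 11.2, from 65 reads, and 2.76 without mouse 57. The spread between mice and the counting error of the irradiated group are not covered, so these ratios are not lower bounds. Without the Alb mice the P450 genes were just past the threshold and not called (edgeR adjusted p = 0.0572 for Cyp1a1 and 0.0565 for Cyp1b1), while Tiparp stayed called at 1.10.

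**Figure D4:**
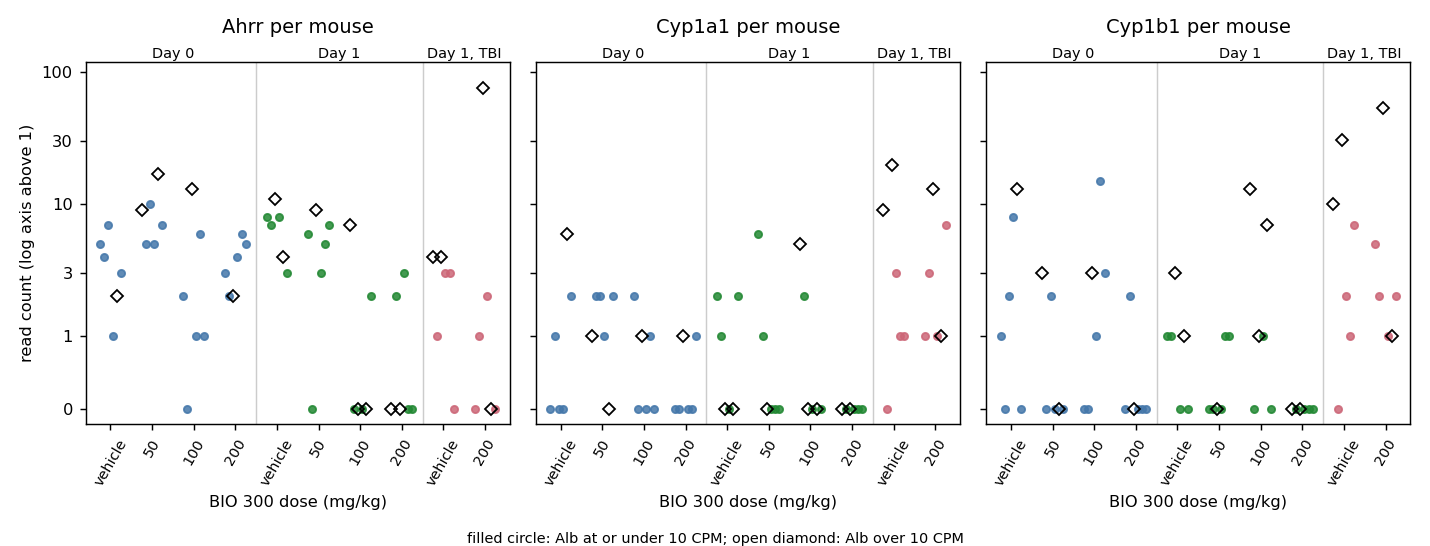
Read counts of Ahrr, Cyp1a1 and Cyp1b1 in each mouse, by dose in mg/kg, day and TBI, on an axis that is logarithmic above 1. Open diamonds mark the 17 mice with Alb over 10 CPM. The highest points, 76, 20 and 54 reads, are diamonds of the irradiated groups, and all 6 mice at 200 mg/kg on Day 1 are at 0 for both P450 genes.

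After TBI the hepatocyte, adipocyte, and fibroblast and mural lists had higher median sums than with vehicle of Day 1, along with the P450 genes. On Day 1 at 200 mg/kg neither P450 had a read, with a floor above the pooled vehicle level. There mouse 43 had a hepatocyte marker sum of 1550 CPM, and fibroblast and mural sums were 4.55 to 12.5 CPM. Of 8 endothelial markers 7 were called higher there, with sums of 1150 to 2750 CPM. From vehicle to 200 mg/kg the median endothelial sum went from 250 to 1960 CPM and the platelet sum from 2400 to 22100 CPM. The endothelial list therefore cannot be read as tissue outside blood alone. The 17 Alb mice held 55.9% of Cyp1a1 reads and 70.4% of Cyp1b1 reads, and mice 49, 51 and 57 alone held 41.2% and 47.7%. The 16 hepatocyte markers summed to 25.6 to 2290 CPM in vehicle mice of Day 1, to 171 to 38500 CPM in irradiated vehicle mice and to 143 to 14600 CPM in irradiated 200 mg/kg mice. Of the 16, 1 was called higher with TBI in vehicle mice. The 8 fibroblast and mural markers summed to 2.58 to 11.7 CPM, 14.8 to 167 CPM and 11.7 to 208 CPM in the same order, and 7 of 8 were called higher with TBI in vehicle mice. Of 8 adipocyte markers 3 were called higher there, with sums of 3.21 to 57.1 CPM and 14.1 to 180 CPM, and of 8 endothelial markers all were, with sums of 179 to 404 CPM and 596 to 2650 CPM. No marker of these 4 lists was at 0 over any group. In the same comparison of irradiated and nonirradiated vehicle mice all 8 neutrophil markers were called higher, with median sums of 4600 and 582 CPM. The part of blood cells in the hepatocyte sums was not tested. In the 100 mg/kg mice of Day 1 the fibroblast and mural sum was 7.66 to 26.9 CPM, highest in mouse 37, and 3 of 8 were called higher with TMM, against none higher and 1 lower with total counts. The part of these tissues in the P450 values was not tested.

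By animal number, odd mice held 72 of the 102 Cyp1a1 reads and 168 of the 199 Cyp1b1 reads. In the even mice Cyp1b1 averaged 0.00819 CPM with vehicle on Day 1 and 0.113 CPM after TBI, and in the odd mice 0.0465 and 0.403 CPM. For Cyp1a1 the even mice averaged 0.0257 and 0.0523 CPM and the odd mice 0.0191 and 0.290 CPM. The labels give no batch for odd or even numbers.

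**Figure D5:**
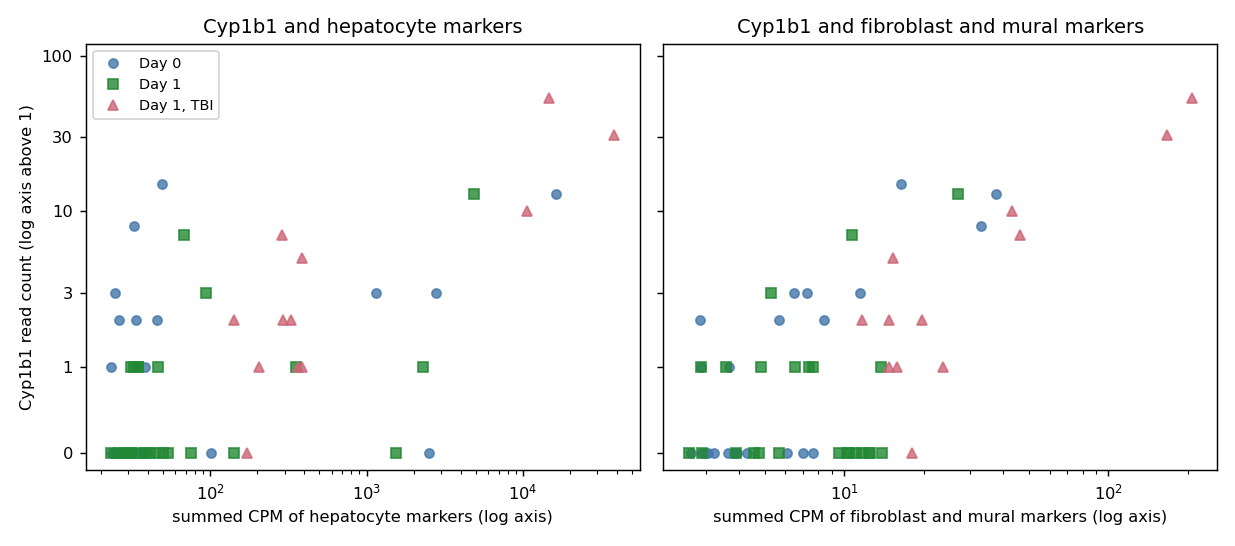
Cyp1b1 reads per mouse against the summed CPM of 16 hepatocyte markers (left) and 8 fibroblast and mural markers (right), with both axes logarithmic (reads above 1 only). Points are the 60 mice by day and TBI. The mice with 54 and 31 reads have the highest fibroblast and mural sums, 208 and 167 CPM.

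The wider pathway was read from a list of 48 genes. With TMM 13 rose and 6 fell among the 43 tested at 200 mg/kg on Day 1, with a median log2 fold change of 0.53 beside -0.48 for all genes. Of all genes 17.3% were called higher and 30.5% lower there. For 100 mg/kg 13 of 42 rose and 4 fell, beside 18.2% and 30.6% of all genes. On Day 0 at 50 mg/kg 4 of 42 fell, beside 4.38% of all genes, and with total counts none of these was called. With total counts the list had 3 higher and 19 lower at 200 mg/kg and 2 and 16 at 100 mg/kg. That scaling moved all genes, to 712 higher and 15407 lower and to 980 and 14735. With TBI in vehicle mice 11 of 44 rose and 2 fell, beside 19.6% and 16.4% of all genes.

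Among partners and chaperones, Src, a kinase that sits in the cytosolic AhR complex, averaged 6.46 ± 1.99 CPM with vehicle on Day 1 and 53.4 ± 8.79 CPM at 200 mg/kg. The groups did not overlap, and the log2 fold change was 3.12 (SE 0.19, edgeR adjusted p = 1.89e-08), or 1.59, still called, with total counts. The share of all genes without overlap between these groups was not counted. Arnt2, a paralog of Arnt, had 0.346 ± 0.0787 and 1.16 ± 0.529 CPM and a log2 fold change of 1.81 (SE 0.36, edgeR adjusted p = 0.000601), or 0.33 and not called with total counts. With TBI Src rose to 40.2 ± 20.1 CPM, by 2.60 (SE 0.35, edgeR adjusted p = 8.29e-05), or 2.08 with total counts.

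In the target battery, Serpinb2, a protease inhibitor of monocytes, had 7.60 ± 4.94 CPM with vehicle and 35.5 ± 5.66 CPM at 200 mg/kg on Day 1. It rose by 2.29 (SE 0.33, edgeR adjusted p = 2.95e-05), or 0.74 and not called with total counts. Slc7a5, an amino acid transporter, had 84.4 ± 36.6 and 323 ± 83.4 CPM, a rise of 2.00 (SE 0.26, edgeR adjusted p = 1.09e-05) that was 0.50 and not called with total counts. On Day 0 at 50 mg/kg Slc7a5 fell instead, by 1.64 on the log2 scale, and Nqo1, a quinone reductase, fell by 1.63, and with total counts the values of -0.98 and -0.99 were not called. Aldh3a1, an aldehyde dehydrogenase, was called higher at 200 mg/kg on Day 1 and with TBI in vehicle mice, but had no read in nonirradiated vehicle mice and at most 7 reads per mouse in either of those groups. Il1b, the interleukin 1 beta gene, rose with TBI by 2.90 (SE 0.38, edgeR adjusted p = 7.98e-05), from 50.1 ± 14.8 to 380 ± 178 CPM. In all, 4 of 11 tested battery genes rose and 1 fell at 200 mg/kg, and 6 of 11 rose with TBI in vehicle mice, beside the shares of all genes given above. Aldh3a1 is counted among those that rose in both comparisons, here and in the wider list. Without a read in vehicle mice, Aldh3a1 could only be called higher.

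Among enzymes that make AhR ligands from tryptophan, Il4i1 had 0.690 ± 0.294 CPM with vehicle on Day 1. At 200 mg/kg it had 0 to 2 reads per mouse, and it was called lower by edgeR (log2 fold change -3.74, SE 0.67, adjusted p = 0.000223). Of the 7 tested genes of this ligand metabolism list 3 were called lower and 1 higher there. The higher one was Afmid, by 1.61 (SE 0.19, edgeR adjusted p = 4.06e-06), or 0.053 and not called with total counts. Npas2, a clock protein of the same bHLH-PAS family, had 0.257 ± 0.0832 CPM with vehicle and 4.73 ± 1.62 CPM at 200 mg/kg and rose by 4.25 (SE 0.33, edgeR adjusted p = 6.58e-08), or 2.70 with total counts. Arntl, a clock partner of this family, fell by 1.40 (SE 0.24, edgeR adjusted p = 0.000138), and the value was -2.87 with total counts.

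Over the 60 mice, 3 genes with the profile most like each expressed member were sought by Pearson correlation of log2(CPM + 1) among 8993 other genes of at least 5 CPM. For Tiparp they were Soat1 (r = 0.93), Spryd3 (r = 0.93) and Zfp53 (r = 0.92). For Arnt they were Golga3 (r = 0.86), Zyg11b (r = 0.80) and Znfx1 (r = 0.79), and for Ahr Plxnd1 (r = 0.77), Hectd3 (r = 0.76) and Pisd (r = 0.76). Between members r was 0.63 for Arnt and Tiparp, 0.46 for Ahr and Tiparp and 0.38 for Ahr and Arnt. These points share libraries, scaling and group differences, and the values are descriptions without a test.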

How the data were processed

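Whole-blood RNA sequencing of 60 CD2F1 mice (10 groups of 6, 1 library per mouse) was analysed. Per the labels, the authors used Trimmomatic 0.36 for trimming and STAR 2.5.2b for alignment (GRCm38), and deposited Subread 1.5.2 counts per gene; the annotation release and strand setting are not given in the sources used here. The labels name poly(A) selection and the study's methods name ribosomal and globin depletion. Doses come from the methods. The authors also deposited tables whose signal columns hold counts divided by a size factor, used only to check columns, and their fold changes and p-values, not used.

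Genes with 10 or more counts over the mice compared were tested with edgeR 4.0.16 (TMM, quasi-likelihood test, two-sided, R 4.3.3), adjusted by the Benjamini-Hochberg method over all genes tested, and called where adjusted p was under 0.05 with a log2 change beyond 1 in either direction. Interactions were contrasts of 4 groups. Alternatives were total counts, DESeq2 1.42.0, other filters, 1 fit of all 60 mice, each mouse left out, and mice with Alb over 10 CPM left out. The test code was checked on simulated data. Library totals ranged from 15099415 to 45589415 counts, and floors of 3 counts cover counting error only. Exon lengths came from GENCODE and promoters from RefSeq. The 6 members were always named; of the 48 pathway genes, those called, at most 3 per role and comparison, could be named. The members and lists were chosen with earlier results of these data known.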

Additional observations from a re-analysis of the deposited data

Results flagged for a closer look

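In 9 of the 58 member and group combinations with any spread, 1 mouse of 6 stood apart from the others by a gap that about 1 group in 20 would show by chance. Mouse 57 was the highest of the irradiated 200 mg/kg group in Ahr (16.1 CPM, next 7.26), Ahrr (1.45 CPM, next 0.0962) and Cyp1b1 (1.03 CPM, next 0.204). In Cyp1a1, mouse 17 stood out among vehicle mice of Day 0 (0.253 CPM) and mouse 31 at 50 mg/kg on Day 1 (0.178 CPM, 6 reads). Mouse 20 was the only mouse with Cyp1b1 reads at 200 mg/kg on Day 0 (0.0847 CPM, 2 reads). Mouse 5 was the highest in Ahrr at 50 mg/kg on Day 0 (0.313 CPM). Mouse 8 had the lowest Tiparp at 100 mg/kg on Day 0 (11.9 CPM) and mouse 25 the lowest with vehicle on Day 1 (14.3 CPM).

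The effect of 200 mg/kg on Tiparp on Day 1 differed between irradiated and nonirradiated mice by a tested interaction of 1.09 on the log2 scale (edgeR adjusted p = 0.0058), with values under the fold threshold when mouse 47 or mouse 55 was left out.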

How the results depend on the processing

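No paired analysis was possible because every animal number occurs in a single group. With total counts, members called were 1 at 50 mg/kg on Day 0, and 4 at 100 and 4 at 200 mg/kg on Day 1. They were 1 for TBI in vehicle mice, 5 for TBI within 200 mg/kg and 1 for irradiated 200 mg/kg against vehicle. They were 3, 3 and 4 in the interactions of 50, 100 and 200 mg/kg with day, and 3 in the interaction with TBI. Genes called higher and lower over all genes were then 2563 and 307 of 24485 at 50 mg/kg on Day 0. On Day 1 they were 980 and 14735 of 23699 at 100 mg/kg and 712 and 15407 of 23513 at 200 mg/kg. TBI gave 3115 and 5666 of 25146 in vehicle mice and 9100 and 223 of 23610 within 200 mg/kg. Irradiated 200 mg/kg against vehicle gave 2701 and 7019 of 25374. The interactions with day gave 395 and 10182 of 26323, 911 and 14606 of 25908, and 616 and 13491 of 25702. The interaction with TBI gave 11725 and 483 of 26875. The filterByExpr setting removes the low-count members and moved Tiparp at 200 mg/kg on Day 1 to -0.95. With it, members called on Day 1 were 0 at 100 and 0 at 200 mg/kg. For both irradiated groups against vehicle they were 0, and for TBI within 200 mg/kg 1. Without the Alb mice they were 0, 0, 1 for TBI in vehicle mice, 1 for TBI within 200 mg/kg and 0 for the interaction with TBI. DESeq2 gave 0 for that interaction, beside 4637 of all genes called higher and 3158 lower, and 1 fit of all 60 mice gave 1 for the interaction of 200 mg/kg with day. The share of all genes called is not given here for filterByExpr, for fits with mice left out or for the fit of all 60. With each mouse left out, called members ranged on Day 1 from 1 to 2 for 100 mg/kg and from 0 to 2 for 200 mg/kg, 1 to 2 for each irradiated group against vehicle, 0 to 1 and 0 to 2 in the interactions of 100 and 200 mg/kg with day, and 0 to 1 in the interaction with TBI. In the wider list, total counts gave 1 higher and 0 lower at 50 mg/kg on Day 0, 2 and 16 at 100 mg/kg and 3 and 19 at 200 mg/kg on Day 1, and 6 fell with TBI without the Alb mice. With each mouse left out the number lower ranged from 4 to 8 for the middle dose and from 4 to 10 for the highest.

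Direction turned for Ahr at 50 mg/kg on Day 0 (0.42) and Day 1 (-0.21), and for TBI in vehicle mice for Ahr (-0.20), Arnt (-0.22) and Tiparp (-0.20), all with total counts, and for Ahr with TBI without the Alb mice (-0.11). For drug within irradiated mice it turned without the Alb mice for Ahrr (-1.04), Cyp1a1 (1.28) and Cyp1b1 (0.10), and for Cyp1b1 with DESeq2 (0.0099), without a filter (0.010) and in 1 fit of all mice (0.015). With each mouse left out the values ranged from -0.04 to 0.25 for Ahr with TBI, and for drug within irradiated mice from -1.62 to 1.89 for Ahrr, -0.12 to 0.037 for Arnt, -0.70 to 0.49 for Cyp1a1 and -1.52 to 0.92 for Cyp1b1. Ahrr turned without the Alb mice also for irradiated 200 mg/kg against nonirradiated vehicle (-2.16, called) and in the interaction with TBI (-0.18), with ranges of -2.61 (called) to 0.81 and -0.052 to 4.4 with each mouse left out, where both lowest values are without mouse 57. The causes were not tested. The ratio and wider-list settings were chosen after seeing the data. Depth limits Ahrr, Cyp1a1 and Cyp1b1, where most mice had under 10 counts.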
